A study of Mus musculus with 1 sample.

Results

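Prostaglandin D2 (PGD2) and prostaglandin E2 (PGE2) are lipid signals made in a few enzymatic steps, and 8 genes of this route were followed across the cells of the fetal mouse testis. They were *Ptgs1* and *Ptgs2* (cyclooxygenases), *Ptgds* and *Hpgds* (PGD2 synthases), *Ptges*, *Ptges2* and *Ptges3* (PGE2 synthases) and *Ptgr1* (a prostaglandin reductase). The members were chosen by name, with earlier results of these data known, and all 8 were among the 22631 features of the count matrix. The study removed *Nr5a1*, which encodes a nuclear receptor of the gonad and adrenal, from Sertoli cells, and the library described here was its control, with no mutant cells analysed. The labels name 12 controls at embryonic day 14.5 for 1 library, whereas the study's text counts 12 control testes and also names the day before, so the age of some cells may be a day less. The label gives their genotype as WT, whereas the study's methods describe controls as *Nr5a1* L2/L2 fetuses, homozygous for the loxP-flanked allele, without the Cre transgene. There was thus 1 library and no replicate, so levels are given with counting intervals and without tests.

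In this route a phospholipase frees arachidonic acid from membranes, a cyclooxygenase turns it into the unstable intermediate PGH2, and a terminal synthase turns PGH2 into one prostaglandin. *Ptgds* encodes the lipocalin-type PGD2 synthase, a secreted protein that also carries lipophilic molecules, and *Hpgds* encodes the haematopoietic PGD2 synthase, a cytosolic enzyme that needs glutathione. PGE2 comes from *Ptges*, a membrane enzyme that also uses glutathione, and from *Ptges2*, whereas *Ptges3* encodes p23, a co-chaperone of HSP90 also described as a cytosolic PGE2 synthase. *Ptgr1* reduces 15-keto prostaglandins and also acts on leukotriene B4. In the fetal testis, *Ptgds* is known as a target of SOX9 in Sertoli cells, and PGD2 as a signal that helps to keep SOX9 in the nucleus.

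The sequences before the start of 4 members are shown. These are both PGD2 synthases, which differed in the class with the highest level (Sertoli-like for *Ptgds*, immune-like for *Hpgds*), *Ptges*, also highest in Sertoli-like cells, and *Ptges3*, which was present in every class. Each run holds the 250 bases upstream of the gene's RefSeq start on the gene's own strand (GRCm38.p6, the assembly also called mm10). The windows are chr2:25469750-25469999 for *Ptgds*, chr6:65144731-65144980 for *Hpgds*, chr2:30903298-30903547 for *Ptges* (all on the minus strand) and chr10:128058732-128058981 for *Ptges3* (plus strand). GENCODE places the outermost start of these genes farther upstream or inside the window, so the windows overlap the annotated genes. Capitals mark matches to AACAAT or ACAAAG (letters of SOX sites), AAGGTCA (NR5A sites), TATAAA (the TATA box) or GGGCGG (the GC box), searched on both strands.
Ptgds: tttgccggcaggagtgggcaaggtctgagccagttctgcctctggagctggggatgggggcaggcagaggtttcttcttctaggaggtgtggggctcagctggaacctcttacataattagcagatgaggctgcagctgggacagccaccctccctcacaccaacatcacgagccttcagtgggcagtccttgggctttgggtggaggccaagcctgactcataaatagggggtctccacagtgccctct
Hpgds: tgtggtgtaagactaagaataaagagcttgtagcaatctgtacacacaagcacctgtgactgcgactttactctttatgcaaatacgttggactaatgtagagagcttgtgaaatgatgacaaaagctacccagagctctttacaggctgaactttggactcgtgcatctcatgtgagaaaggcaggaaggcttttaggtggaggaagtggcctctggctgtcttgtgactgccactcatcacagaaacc
Ptges: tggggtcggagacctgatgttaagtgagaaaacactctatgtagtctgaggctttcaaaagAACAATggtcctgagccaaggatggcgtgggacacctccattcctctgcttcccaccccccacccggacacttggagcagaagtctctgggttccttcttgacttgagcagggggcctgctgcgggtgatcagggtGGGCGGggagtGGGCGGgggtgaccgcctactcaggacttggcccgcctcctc
Ptges3: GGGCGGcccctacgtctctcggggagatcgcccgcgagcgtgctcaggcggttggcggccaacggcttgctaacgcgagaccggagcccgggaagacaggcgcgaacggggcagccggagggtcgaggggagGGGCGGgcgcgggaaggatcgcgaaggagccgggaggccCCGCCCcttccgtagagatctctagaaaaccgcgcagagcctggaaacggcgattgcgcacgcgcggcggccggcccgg
The *Ptges* window held AACAAT from 189 to 184 bases before the start and GGGCGG at 53 to 48 and 42 to 37 bases before it. The *Ptges3* window held GGGCGG 3 times, and the *Ptgds* and *Hpgds* windows held none of the searched letters. None of the matches overlapped another. Among the windows of 32851 genes of the same length, 9.42% held AACAAT, 16.5% ACAAAG, 4.08% AAGGTCA, 12.4% TATAAA and 32.7% GGGCGG, so these matches are common letters and describe the windows only. The *Ptges3* window was 73.2% G and C with 38 CG dinucleotides, and the *Ptgds* window 58.4% with 2. The *Ptges* and *Hpgds* windows had 8 and 3 CG dinucleotides, beside a median of 6 (quartiles 2 and 16) over all windows.

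The library held 72595083 UMIs (unique molecular indices, each standing for 1 captured RNA molecule) in 5421 barcodes, and 3821 cells were kept, with 2262 to 53807 UMIs each (median 12105). Prostaglandin pathway genes were left out of the genes used for clustering, so that the clusters were not built on them. The partner genes described below were not left out. These are the HSP90 and glutathione genes, *Sox9*, *Sox8*, *Sox10*, *Nr5a1* and *Amh*. The 16 clusters gave 11 named classes, each from marker genes: 1363 interstitial-like, 917 Sertoli-like, 525 peritubular myoid-like, 312 Leydig-like, 251 germ-like, 154 coelomic epithelium-like, 97 perivascular-like, 34 erythroid-like, 29 rete testis-like, 27 immune-like and 25 endothelial-like cells. A further 87 cells, with *Gdf10* and *Foxp2* among their leading genes, stayed unnamed. The Sertoli-like class joined a cluster of 854 cells led by *Amh* with 1 of 63 cells whose median depth was 3116 UMIs. Germ-like cells were the deepest, with a median of 36155 UMIs beside 14098 in Sertoli-like cells, so shares of cells are also given after thinning to 5000 UMIs per cell. Levels are UMIs of a gene for every 1000000 UMIs of the class (CPM) with exact Poisson 95% intervals, and shares of cells have exact (Clopper-Pearson) 95% intervals. Both cover counting error only. Counts came from the 3' ends of transcripts, and levels are compared between classes for 1 gene, not between genes.

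**Figure D1:**
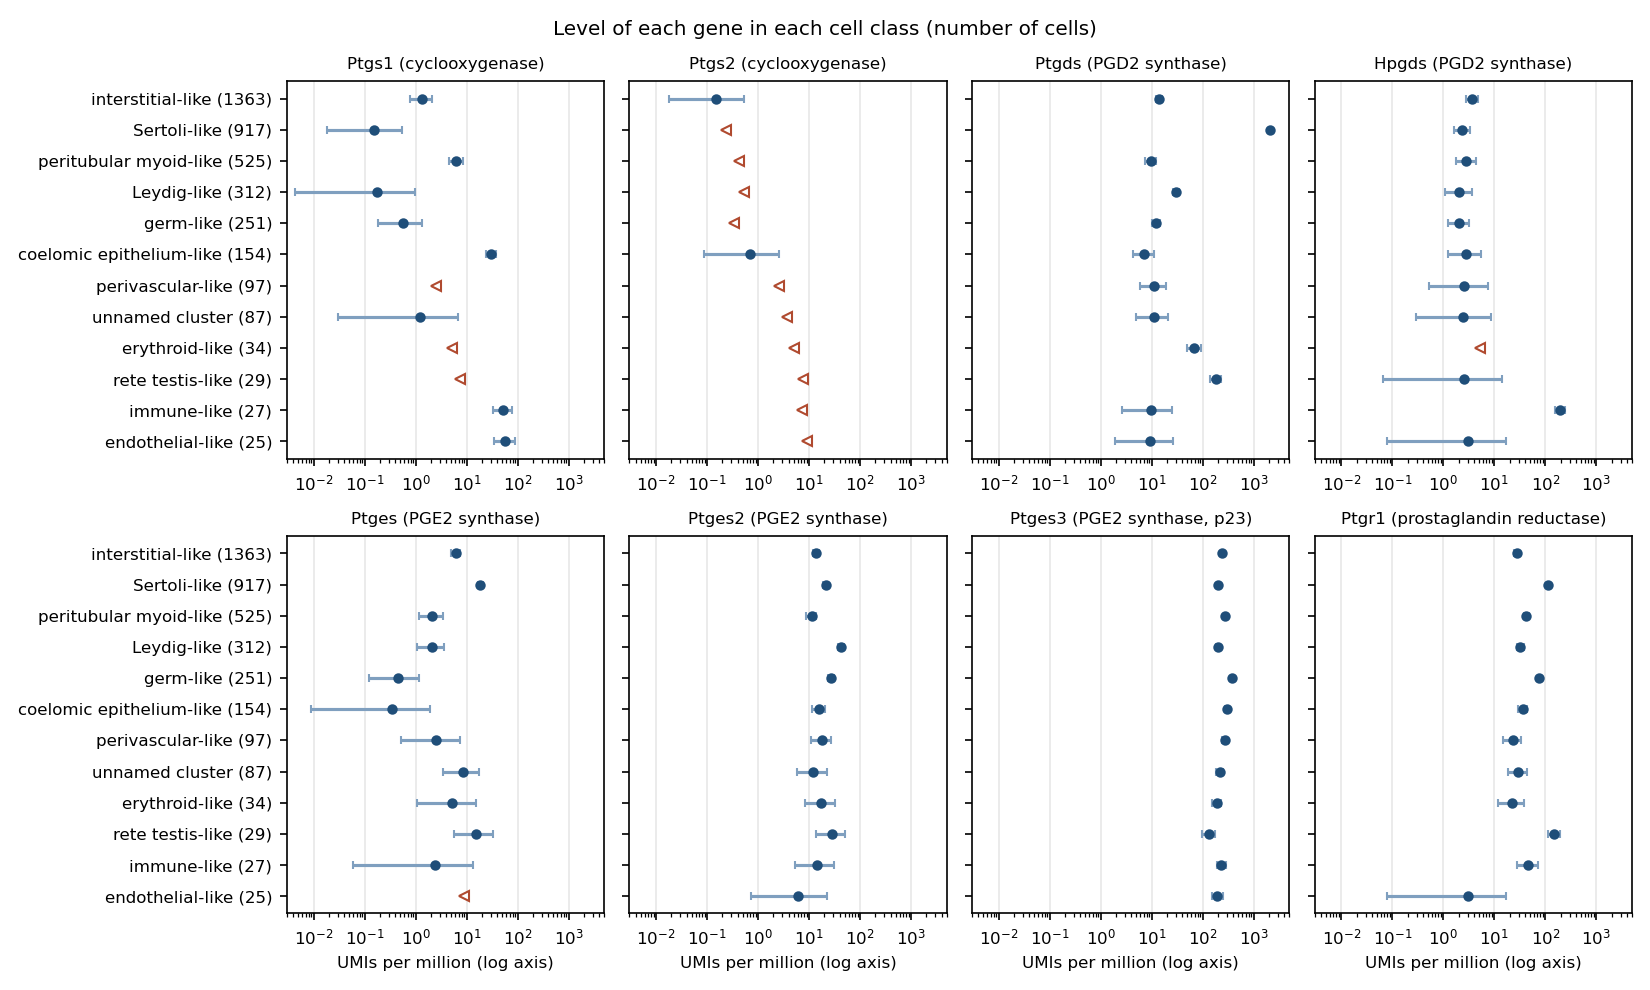
Level of each of the 8 genes (CPM, log axis) in each cell class, with the number of cells of the class in parentheses. Points are levels, bars are exact Poisson 95% intervals, and open triangles mark classes without a UMI at the level that 3 counts would give. *Ptgds* stood at 2063 CPM in Sertoli-like cells and at 180 CPM or less elsewhere, whereas *Ptges3* lay between 132 and 375 CPM in all classes.

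Cyclooxygenase transcripts were scarce in this testis, and almost none of them lay in the Sertoli-like cells. *Ptgs1* (ENSMUSG00000047250; chromosome 2, 36230426 to 36252272, plus strand), which encodes the constitutive enzyme, had 199 UMIs in the kept cells. The coelomic epithelium-like cells, the surface layer of the gonad, held 87 of them, at 30.6 CPM (24.5 to 37.8). Endothelial-like cells stood at 57.6 CPM (34.7 to 90.0) from 19 UMIs and immune-like cells at 52.6 CPM (33.0 to 79.7) from 22 UMIs, and the intervals of these 3 classes overlapped. Peritubular myoid-like cells, the contractile layer around the cords, followed at 6.24 CPM (4.53 to 8.37), above the interstitial-like cells at 1.33 CPM (0.788 to 2.10). *Ptgs1* had 2 UMIs in the 917 Sertoli-like cells, at 0.153 CPM (0.0185 to 0.552), 1 UMI in Leydig-like and 5 in germ-like cells. The log2 ratio of Sertoli-like to all other cells was -4.95 (-8.00 to -3.08).

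A *Ptgs1* UMI was present in 35.1% (27.6 to 43.2%) of coelomic epithelium-like cells and in 48.2% of immune-like cells, beside 0.218% of Sertoli-like cells. At 5000 UMIs per cell these shares were 13.6% (8.51 to 20.2%), 25% (9.77 to 46.7%) and 0.117% (0.00297 to 0.653%). Sertoli-like and coelomic epithelium-like cells had similar median depths, 14098 and 15972 UMIs. All 25 endothelial-like cells were removed when the expected doublet rate was doubled, so their level rests on that filter.

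*Ptgs2* (ENSMUSG00000032487; chromosome 1, 150100031 to 150108227, plus strand), which encodes the inducible cyclooxygenase, had 4 UMIs in 3821 cells. Of these, 2 were in interstitial-like and 2 in coelomic epithelium-like cells. *Ptgs2* was detected in 0 of 917 Sertoli-like cells. A floor of 3 counts puts the limit at 0.327% for cells with a UMI, which is no limit on cells that express the gene, and at 0.229 CPM for the level. The order of the classes for *Ptgs2* could not be read at this depth, since each class's interval overlapped the next.

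Cells with a UMI of either cyclooxygenase numbered 147, of which 56 were coelomic epithelium-like, 40 peritubular myoid-like, 20 interstitial-like, 13 immune-like, 9 endothelial-like and 2 Sertoli-like. Of the 147 cells, 20 also had a *Ptgds* UMI, 16 an *Hpgds* UMI and 4 a *Ptges* UMI. A *Ptges2* UMI was present in 35 of them and a *Ptges3* UMI in 136. Among all 3821 kept cells, 1253 had *Ptgds*, 151 *Hpgds*, 333 *Ptges*, 861 *Ptges2* and 3349 *Ptges3*. The 2 Sertoli-like cells with a cyclooxygenase UMI each had *Ptgds* as well. The other 894 cells with *Ptgds* in that class had no cyclooxygenase UMI, and a cell without a UMI may still hold transcripts.

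**Figure D2:**
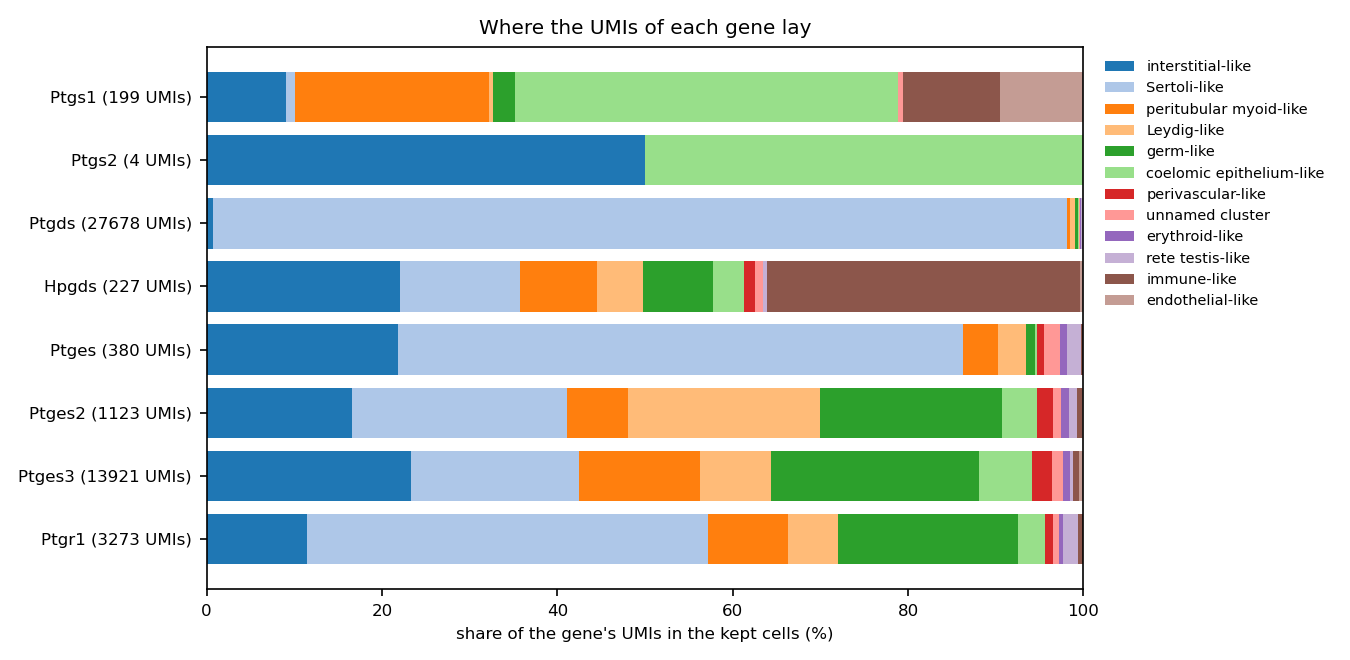
Share of each gene's UMIs in the kept cells (%) by cell class, with the number of UMIs of the gene in parentheses. The bar of *Ptgds* is taken up by Sertoli-like cells (97.5%), that of *Hpgds* most by immune-like cells (35.7%), and that of *Ptgs1* most by coelomic epithelium-like cells (43.7%). The *Ptgs2* bar rests on 4 UMIs.

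*Ptgds* was a gene of the Sertoli-like cells. *Ptgds* (ENSMUSG00000015090; chromosome 2, 25466709 to 25470046, minus strand) had 26982 UMIs in that class, at 2063 CPM (2038 to 2088), and 696 UMIs at 16.7 CPM in all other cells together. The log2 ratio was 6.95 (6.84 to 7.06), a 124-fold difference, beside 7.49 (7.35 to 7.62) for *Amh*, which encodes anti-Müllerian hormone and was one of the markers that named the class. *Ptgds* was not one of these markers. The *Ptgds* ratio was 5.94 with no doublets removed and 4.76 with each cell classed by itself from the same markers. A *Ptgds* UMI was present in 97.7% (96.5 to 98.6%) of the kept Sertoli-like cells, and in 98.1% (97.0 to 98.9%) of the 851 that could be thinned to 5000 UMIs.

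Rete testis-like cells, the duct that joins the cords, came next for *Ptgds* at 180 CPM (141 to 227), then erythroid-like cells at 68.5 CPM (49.0 to 93.3) and Leydig-like cells at 29.9 CPM (25.6 to 34.7). The intervals of these neighbours did not overlap, but they do not cover differences between cells of a class. In the erythroid-like class 3 cells held 34 of the 40 *Ptgds* UMIs, so its place in this order rests on few cells. Doubling the doublet rate removed 20 of the 34 erythroid-like and 11 of the 29 rete testis-like cells, and the cells left stood at 150 CPM (103.5 to 211) and 240 CPM (182 to 310), which overlapped. The remaining 8 classes ran from 13.8 CPM in interstitial-like cells to 7.04 CPM in coelomic epithelium-like cells, and every neighbour in that order overlapped. In germ-like cells, the share with a *Ptgds* UMI was 21.1% as read (median depth 36155 UMIs) and 3.24% (1.41 to 6.28%) at 5000 UMIs, beside 4.78% in interstitial-like cells.

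*Ptgds* was also set against *Amh* in each class. The part of free RNA or of doublets in *Ptgds* outside the Sertoli-like cells was not tested. The ratio was 1.05 *Ptgds* UMIs per *Amh* UMI (1.03 to 1.07) in Sertoli-like cells. Rete testis-like cells (0.922, 0.658 to 1.29), erythroid-like cells (0.889, 0.566 to 1.39) and peritubular myoid-like cells (1.21, 0.84 to 1.76) had intervals that held the Sertoli-like value. Interstitial-like cells stood at 1.484 (1.18 to 1.88) and germ-like cells at 1.46 (1.08 to 1.99), above it. The Sertoli-like cells themselves did not share 1 ratio, since their shallow cluster of 63 cells was at 1.65 (1.38 to 1.98) and the large one at 1.04 (1.03 to 1.06). In the erythroid-like class 3 cells held 34 of the 40 *Ptgds* UMIs and 41 *Amh* UMIs, and in the rete testis-like class 3 cells held 34 of 71. In the germ-like class 3 cells held 52 of the 108 *Ptgds* UMIs and 33 of the 74 *Amh* UMIs. Against the sum of all Sertoli markers, germ-like cells had 0.19 *Ptgds* UMIs per marker UMI (0.153 to 0.233), an interval that held the Sertoli-like 0.172. Interstitial-like cells had 0.1235 (0.1055 to 0.1439), below the Sertoli-like value.

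Leydig-like cells departed most among the classes with over 20 *Ptgds* UMIs, at 3.15 *Ptgds* UMIs per *Amh* UMI (2.31 to 4.34; 173 and 55 UMIs). The cluster of 129 cells led by the steroidogenic genes *Cyp11a1*, *Cyp17a1* and *Star* had 108 *Ptgds* and 14 *Amh* UMIs, a ratio of 7.71 (4.404 to 14.6). A *Ptgds* UMI was found in 47 of these cells (36.4%), and in 15.0% (9.25 to 22.4%) at 5000 UMIs. The cluster of 183 Leydig-like cells led by *Nppc* and *Vsnl1* had a ratio of 1.58 (1.06 to 2.40). Against the sum of all Sertoli markers, the same Leydig-like class had 0.0595 *Ptgds* UMIs per marker UMI, below the 0.172 of Sertoli-like cells. The ratio to *Amh* and that to all markers thus differed in direction. Leydig-like cells held 2907 marker UMIs, 2289 of them in the steroidogenic cluster, beside 1514 in the interstitial-like class. *Amh* was at 9.49 CPM in Leydig-like and 9.31 CPM in interstitial-like cells. Whether the marker sum gauges Sertoli-like RNA in Leydig-like cells was not tested. The 3 Leydig-like cells with the most *Ptgds* held 47 of the 173 UMIs and 32 of the 55 *Amh* UMIs. When the doublet rate was doubled, the Leydig-like cells left stood at 23.6 CPM (19.7 to 28.0).

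**Figure D3:**
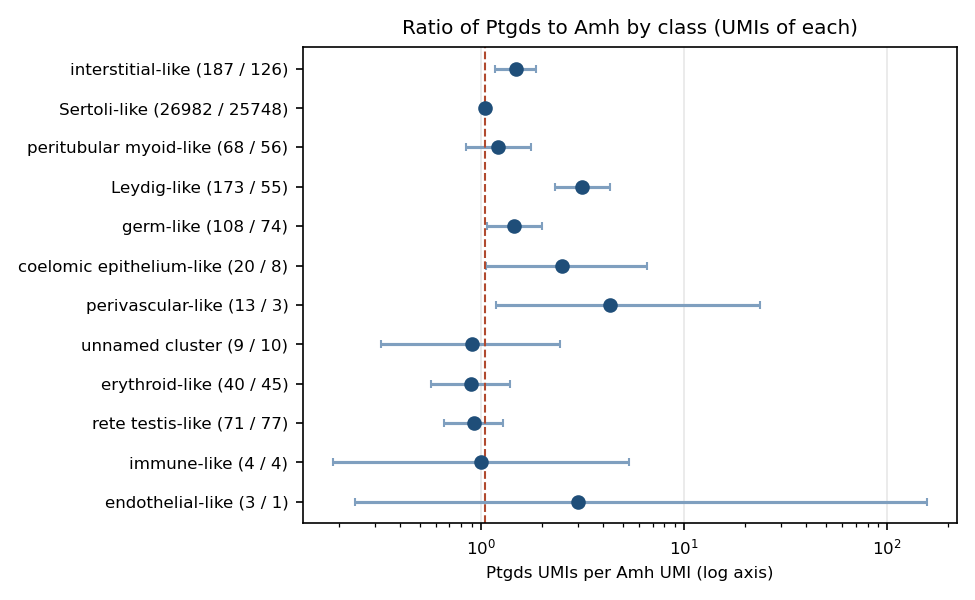
*Ptgds* UMIs per *Amh* UMI (log axis) in each class, with the UMIs of both genes in parentheses and exact 95% intervals as bars. The dashed line is the ratio of Sertoli-like cells, 1.05. The interval of Leydig-like cells (2.31 to 4.34) lies clear of the line, and those of rete testis-like and erythroid-like cells hold it.

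Among the 917 Sertoli-like cells left by the filters, *Ptgds* varied over a broad range, and no cluster lacked it. Cells at the lower and upper quartile had 1308 and 2705 CPM of *Ptgds*, with a median of 1964 and a highest value of 6631. Only 21 of 917 cells had no *Ptgds* UMI, of which 12 were in the large cluster and 9 in the shallow one. The large cluster stood at 2076 CPM (2052 to 2102) and the shallow one of 63 cells at 1340 CPM (1199 to 1494), where *Amh* was also lower, at 814 CPM (705 to 936) beside 1990 CPM. By depth, the 306 shallowest cells had 2182 CPM (2127 to 2238), the 305 of middle depth 2255 CPM (2211 to 2301) and the 306 deepest 1874 CPM (1840 to 1909). The outlier filter changed the size of the class. With outliers cut at 5 median absolute deviations it held 1187 cells and 28366 *Ptgds* UMIs. With no outlier filter it held 1296 cells and 28598 UMIs, beside 917 cells and 26982 UMIs as reported. The spread of *Ptgds* over single cells was not examined under these settings.

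Cells were also grouped by the phase that cell-cycle genes call. *Ptgds* was at 2181 CPM (2145 to 2218) in 482 G1 cells, 2281 CPM (2229 to 2335) in 210 S cells and 1682 CPM (1640 to 1724) in 225 G2M cells. *Amh* was likewise lowest in G2M, at 1679 CPM (1638 to 1721) beside 2066 CPM in G1. *Ptgr1* was highest in G2M, at 136 CPM (124 to 148), beside 108 CPM (99.6 to 116) in G1 and 103 CPM (91.9 to 115) in S. *Ptges3* was at 153 CPM (143 to 163) in G1, 240 CPM (223 to 258) in S and 256 CPM (240 to 273) in G2M. *Ptges* was at 22.4 CPM (18.8 to 26.4) in G1 and 13.4 CPM (9.95 to 17.7) in G2M. G2M cells were deeper (median 17399 UMIs) than G1 cells (13010), and the part of depth in these differences was not tested.

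In 851 Sertoli-like cells thinned to 5000 UMIs, *Ptgds* and *Amh* varied together, with a Spearman rho of 0.32 and a Pearson r of 0.43 on log values. Between *Ptgds* and *Sox9*, *Sox8*, *Nr5a1*, *Ptges*, *Ptges2*, *Ptges3* and *Ptgr1*, rho lay between -0.087 and 0.0026. The cells share 1 library and the thinned counts are low (80 UMIs for *Ptges*, 1438 for *Sox9*), so these values are a description only.

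**Figure D4:**
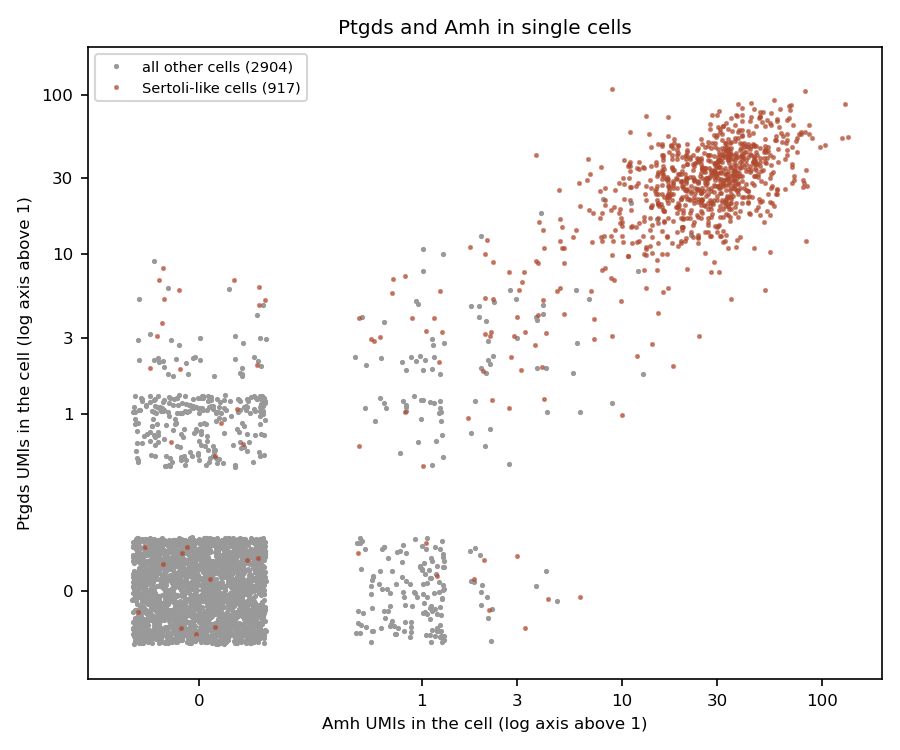
*Ptgds* against *Amh* UMIs in each of the 3821 kept cells (each axis linear to 1 and logarithmic above, points jittered). Sertoli-like cells (red) lie mostly above 10 UMIs of both genes, with medians of 28 *Ptgds* and 26 *Amh* UMIs, and the other cells (grey) lie mostly at 0 or 1 UMI.

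The other PGD2 synthase was low in every class but the immune-like cells. *Hpgds* (ENSMUSG00000029919; chromosome 6, 65117293 to 65144908, minus strand) stood at 194 CPM (154 to 241) in the 27 immune-like cells, which held 81 of its 227 UMIs. The log2 ratio of immune-like to all other cells was 6.18 (5.76 to 6.58). In the other classes it lay between 3.69 CPM in interstitial-like and 2.04 CPM in germ-like cells, with overlapping neighbours, and was 0 in erythroid-like cells (up to 5.14 CPM allowed by 3 counts). Sertoli-like cells had 2.37 CPM (1.61 to 3.36), from 31 UMIs.

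The immune-like cluster was mixed, and a split by its leading genes, chosen after the cluster was seen, placed most *Hpgds* UMIs in 1 kind of cell. The 14 cells led by the complement genes *C1qa*, *C1qb* and *C1qc*, which mark macrophages, held 79 of the 81 UMIs, at 408 CPM (323 to 509). All 14 had the gene, with 1 to 15 UMIs and a median of 4. The 4 cells led by the neutrophil genes *S100a8* or *Mpo* had none, and the 3 led by the mast cell genes *Cma1* and *Cpa3* had 1. *Ptgs1* was spread more evenly, with 13 UMIs in the *C1q* cells (67.2 CPM, 35.8 to 115) and 7 in the *S100a8* or *Mpo* cells (74.1 CPM, 29.8 to 153). Doubling the doublet rate removed 15 of the 27 immune-like cells and left 8 *Hpgds* UMIs, at 40.8 CPM (17.6 to 80.4).

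The inducible PGE2 synthase shared the Sertoli-like class with *Ptgds* at a much smaller contrast. *Ptges* (ENSMUSG00000050737; chromosome 2, 30889471 to 30929863, minus strand) had 245 UMIs there, at 18.7 CPM (16.5 to 21.2), beside 3.23 CPM in all other cells, a log2 ratio of 2.54 (2.23 to 2.85). Rete testis-like cells (15.2 CPM, 5.59 to 33.1) and the unnamed cluster (8.50 CPM, 3.42 to 17.5) followed with overlapping intervals. Interstitial-like cells had 6.13 CPM (4.88 to 7.60), with 8.02 CPM (6.20 to 10.2) in their *Colec11* and *Inhba* cluster. Germ-like and coelomic epithelium-like cells were near the floor, at 0.454 and 0.352 CPM. A *Ptges* UMI was present in 22.1% (19.5 to 24.97%) of Sertoli-like cells, and in 8.81% (6.995 to 10.9%) at 5000 UMIs beside 2.70% (1.89 to 3.74%) of interstitial-like cells. GENCODE lists *Gm13400*, which was not in the matrix, on the same strand within the *Ptges* locus.

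*Ptges2* (ENSMUSG00000026820; chromosome 2, 32395896 to 32405772, plus strand) was highest in the Leydig-like cells, at 42.3 CPM (37.2 to 47.9) and a log2 ratio of 1.24 (1.03 to 1.45), with an overlapping interval in the 29 rete testis-like cells (27.9 CPM, 13.9 to 49.9). Within that class, the steroidogenic cluster had 56.2 CPM (48.3 to 65.0) and the *Nppc* and *Vsnl1* cluster 24.7 CPM (19.0 to 31.6). Germ-like cells had 26.6 CPM (23.3 to 30.2) and Sertoli-like cells 21.0 CPM (18.6 to 23.7), and the Sertoli-like ratio to all other cells was 0.05 (-0.15 to 0.25), an interval that holds 0. The germ-like share of cells with a UMI was 61.8% as read and 9.31% (5.995 to 13.6%) at 5000 UMIs, beside 14.2% (10.5 to 18.6%) of Leydig-like cells.

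*Ptges3* (ENSMUSG00000071072; chromosome 10, 128058954 to 128077272, plus strand) was present throughout, from 132 CPM (98.5 to 173) in rete testis-like to 375 CPM (363 to 388) in germ-like cells. The germ-like level stood clear of the next, 293 CPM (273 to 314) in coelomic epithelium-like cells, with a log2 ratio to all other cells of 0.70 (0.65 to 0.76). All 251 germ-like cells had a UMI, and 89.1% (84.5 to 92.7%) did at 5000 UMIs, beside 62.4% (59.0 to 65.7%) of Sertoli-like cells. Sertoli-like cells had 203 CPM (196 to 211), a log2 ratio of -0.41 (-0.47 to -0.35).

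Genes of the HSP90 machine, to which p23 belongs, were measured beside it. *Hsp90aa1* stood at 5267 CPM (5219 to 5315) in germ-like and 922 CPM (906 to 939) in Sertoli-like cells. *Stip1*, the adaptor between HSP70 and HSP90, had 459 CPM (445 to 474) beside 82.8 CPM, and *Ahsa1*, which stimulates the HSP90 ATPase, 387 CPM (374 to 400) beside 122 CPM. The contrast was milder for *Hsp90ab1*, at 5387 CPM in germ-like and 3215 CPM in Sertoli-like cells. In the same order, *Fkbp4* had 585 and 229 CPM and *Hspa8* 3803 and 1641 CPM. *Fkbp5*, a co-chaperone of steroid receptors, had the other order, with 28.4 CPM (24.97 to 32.1) in germ-like and 214 CPM (206 to 222) in Sertoli-like cells. Of the glutathione genes, *Gclm*, the modifier of the first enzyme of its synthesis, had 131 CPM (123 to 138) in germ-like, 302 CPM (259 to 350) in erythroid-like and 30.7 CPM (27.7 to 33.8) in Sertoli-like cells. *Gsr*, which regenerates glutathione, had 71.7 CPM (67.2 to 76.4) in Sertoli-like and 79.1 CPM (73.4 to 85.2) in germ-like cells. In germ-like, erythroid-like and Sertoli-like cells, *Gclc* had 47.1, 54.8 and 11.1 CPM, and *Gss* 21.2, 24.0 and 16.05 CPM. Immune-like cells had the most *Gsr*, at 165 CPM, with *Gclc* at 55.0, *Gclm* at 78.9 and *Gss* at 12.0 CPM.

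*Ptgr1* (ENSMUSG00000028378; chromosome 4, 58965439 to 58987119, minus strand) was highest in the rete testis-like and Sertoli-like classes. The rete testis-like level rests on 58 UMIs in 29 cells, of which doubling the doublet rate removed 11. *Amh* stood at 195 CPM in these 29 cells, and the part of Sertoli-like RNA in their *Ptgr1* was not tested. Rete testis-like cells had 147 CPM (112 to 190) and Sertoli-like cells 114 CPM (109 to 120), with overlapping intervals, followed by germ-like cells at 76.0 CPM (70.4 to 82.0), clear of Sertoli-like cells. The Sertoli-like log2 ratio to all other cells was 1.43 (1.33 to 1.53). At 5000 UMIs, 42.3% (39.0 to 45.7%) of Sertoli-like and 29.6% (23.9 to 35.7%) of germ-like cells had a UMI. Interstitial-like cells had 27.6 CPM (24.8 to 30.5) and endothelial-like cells 1 UMI.

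Across the fixed list of prostaglandin pathway genes, 49 of 51 symbols were in the matrix, and 31 had at least 50 UMIs in the kept cells. The absent symbols, *Fam213b* and *Ptgr3*, are other names of *Prxl2b* and *Zadh2*, which were listed too and were in the matrix. The list was chosen with earlier results of these data known, so the counts below only describe it. A gene counted as higher in a class at 2-fold or more above all other cells, with 1 CPM added to both. In Sertoli-like cells 8 of the 31 did so, 3 of them among the 7 members with 50 UMIs (*Ptgds*, *Ptges* and *Ptgr1*), beside 11.2% of all 13130 genes of that depth. In Leydig-like cells 6 of 31 did so, with *Ptges2* as the member, beside 6.36% of all genes. The counts were 2 of 31 in germ-like (14.6% of all genes), 2 of 31 in interstitial-like (6.53%) and 1 of 31 in peritubular myoid-like cells (4.52%), with no member among them. The median log2 ratio of the 31 genes was -0.22 in Sertoli-like and -0.42 in Leydig-like cells, beside -0.07 and -0.33 over all genes.

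The step before the cyclooxygenases was divided among the classes. *Pla2g12a*, a secreted phospholipase A2, had 113 CPM (107 to 119) in Sertoli-like cells, beside 16.7 CPM in interstitial-like cells, with overlapping intervals in erythroid-like (92.5 CPM) and rete testis-like cells (91.3 CPM). *Pla2g5* had 35.8 CPM (32.6 to 39.2) in Sertoli-like cells, with an overlapping interval in rete testis-like cells (30.4 CPM, 15.7 to 53.2), and 17.3 CPM (14.04 to 21.0) in Leydig-like cells. *Pla2g6* had 31.7 CPM (28.8 to 34.9) in Sertoli-like and 25.2 CPM (21.3 to 29.6) in Leydig-like cells, which overlapped. *Pla2g1b* was a gene of the Leydig-like cells, at 150 CPM (141 to 161), with 35.5 CPM (19.4 to 59.6) in rete testis-like and 27.1 CPM in Sertoli-like cells. *Pla2g4a*, the cytosolic phospholipase A2 most tied to arachidonic acid, was at 61.2 CPM (57.1 to 65.5) in interstitial-like and 57.3 CPM (44.5 to 72.7) in perivascular-like cells. Peritubular myoid-like cells had 52.7 CPM (47.5 to 58.4), coelomic epithelium-like cells 51.8 CPM (43.7 to 60.8) and Sertoli-like cells 35.3 CPM (32.2 to 38.7). *Pla2g4a* was lowest in germ-like cells (2.04 CPM), with an overlapping interval in endothelial-like cells (3.03 CPM, 0.0768 to 16.9). The germ-like cells held 182 of the 187 *Pla2g10* UMIs. *Mgll*, which also supplies arachidonic acid, had no UMI in Sertoli-like cells (up to 0.229 CPM allowed by 3 counts). Endothelial-like cells had 39.4 CPM (21.0 to 67.45) of it and erythroid-like cells 34.3 CPM (20.9 to 52.9), with overlapping intervals.

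Synthases of the other prostanoids had patterns of their own. *Ptgis*, the prostacyclin synthase, was a stromal and surface gene, at 129 CPM (116 to 143) in coelomic epithelium-like, 97.9 CPM in peritubular myoid-like and 78.3 CPM in interstitial-like cells, and at 1.07 CPM in Sertoli-like cells. *Tbxas1*, the thromboxane synthase, had 16 of its 24 UMIs in immune-like cells. *Akr1b3*, an aldose reductase that can make PGF2α, had 646 CPM (633 to 660) in Sertoli-like cells beside 261 CPM (213 to 317) in rete testis-like cells. *Gstm2*, a glutathione S-transferase listed for its prostaglandin activity, had 2200 CPM (2175 to 2226) and 1857 CPM (1725 to 1997) in the same classes. Both belong to families of close copies, among which reads can be split. *Prxl2b*, a prostamide and PGF2α synthase, was highest in Leydig-like cells among the classes of 30 or more cells, at 85.6 CPM (78.2 to 93.5). The 27 immune-like cells had 98.1 CPM of it (70.4 to 133), an overlapping interval. *Cbr1*, which reduces PGE2, varied less, from 94.7 CPM in coelomic epithelium-like to 48.0 CPM in erythroid-like cells among the classes of 30 or more cells. It was at 28.7 CPM (14.8 to 50.1) in immune-like cells.

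Receptors for PGD2 were hardly detected. *Ptgdr* had 1 UMI, in a Leydig-like cell, and *Ptgdr2* had 2, in an interstitial-like and a coelomic epithelium-like cell. *Pparg*, a nuclear receptor for PGD2 products, had 3 UMIs. Among the PGE2 receptors, *Ptger4* was the one with a clear place, at 21.9 CPM (18.3 to 26.1) in Leydig-like cells, which held 127 of its 172 UMIs, followed by perivascular-like cells at 7.59 CPM (3.47 to 14.4). *Ptger1*, *Ptger2* and *Ptger3* had 23, 23 and 21 UMIs over all kept cells. Of the *Ptger2* and *Ptger3* UMIs, 5 each were in the 27 immune-like cells, at 12.0 CPM (3.88 to 27.9).

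Leydig-like cells also had the highest level of *Tbxa2r*, the thromboxane receptor, among classes of 30 or more cells, at 59.0 CPM (52.9 to 65.6), beside 5.81 CPM in Sertoli-like cells. *Ptgfr*, the PGF2α receptor, stood at 15.8 CPM (8.40 to 27.0) in the unnamed cluster and at 5.18 CPM (3.49 to 7.39) in Leydig-like cells. *Ptgir* had 4 UMIs.

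Genes of export, uptake and breakdown were divided among the classes. *Hpgd*, which inactivates PGE2 and other prostaglandins, had 247 CPM (229 to 266) in coelomic epithelium-like cells and 120 CPM (88.8 to 158) in immune-like cells, with 60.7 CPM (37.1 to 93.7) in endothelial-like cells. These were also the classes with the most *Ptgs1*. Sertoli-like cells had 12.3 CPM. *Slco2a1*, the prostaglandin importer, had 32 of its 54 UMIs in the 25 endothelial-like cells, at 97.1 CPM (66.4 to 137). *Abcc4*, an exporter of prostaglandins and other anions, had 142 of its 150 UMIs in germ-like cells, at 16.1 CPM. Endothelial-like cells had 12.1 CPM of it, from few UMIs. *Ptgr2* had 31.8 CPM (27.3 to 36.7) in Leydig-like and 29.97 CPM (27.1 to 33.1) in Sertoli-like cells, and *Zadh2*, another reductase of this kind also called *Ptgr3*, was highest in coelomic epithelium-like cells at 42.3 CPM (35.0 to 50.5).

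**Figure D5:**
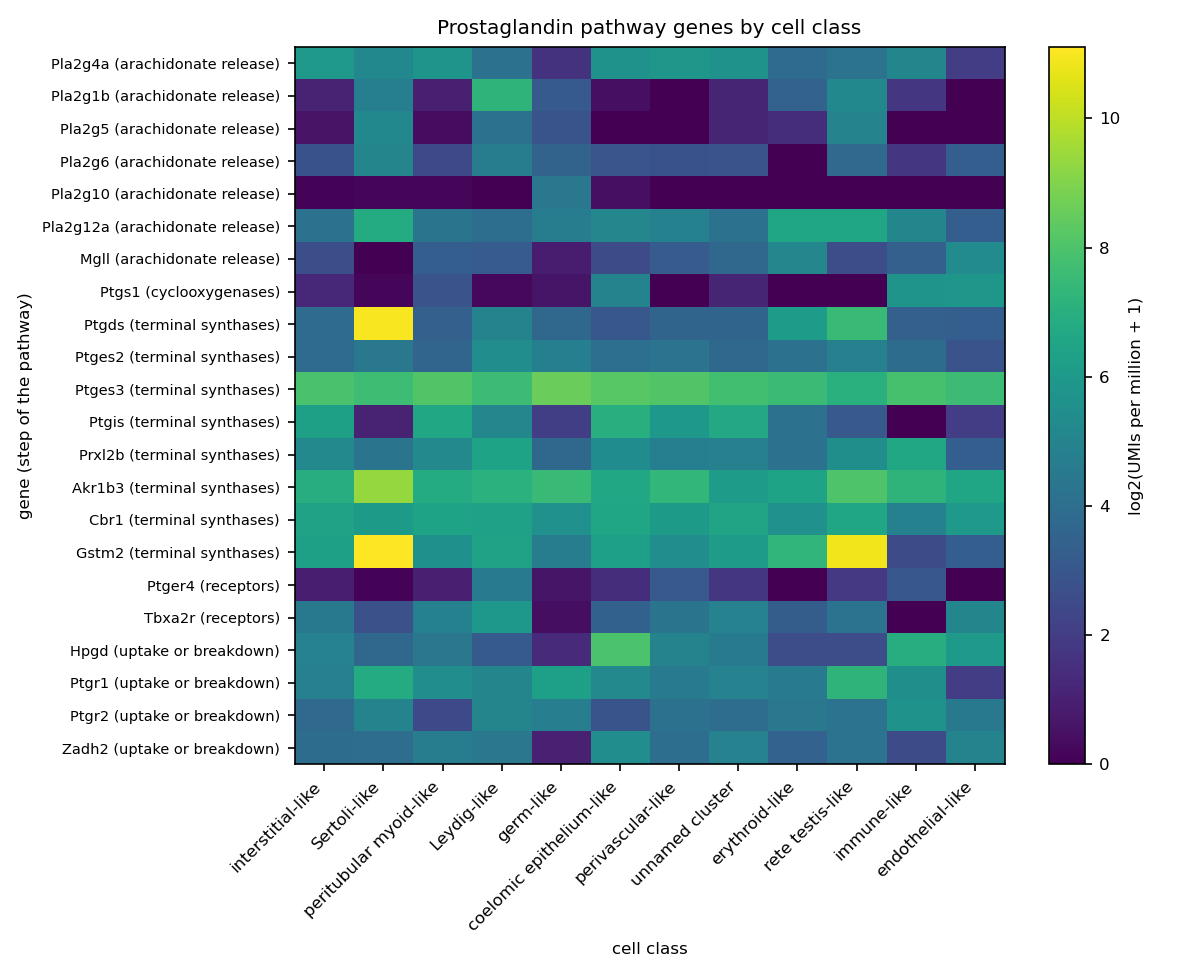
Prostaglandin pathway genes with at least 20 CPM in a class of 30 or more cells, in rows by step of the pathway, and cell classes in columns. Colour is log2(CPM + 1). *Ptgds* (2063 CPM) and *Gstm2* (2200 CPM) are brightest in Sertoli-like cells, *Ptgs1* is near 0 there (0.153 CPM), and *Hpgd* is brightest in coelomic epithelium-like cells (247 CPM).

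The transcription factors listed for *Ptgds* were measured beside it. *Sox9*, whose protein is known to act on the *Ptgds* promoter, stood at 330 CPM (320 to 340) in Sertoli-like cells and at 254 CPM in rete testis-like cells, in which *Ptgds* was at 180 CPM. *Sox8* and *Sox10* were at 71.8 and 21.8 CPM in Sertoli-like cells and below 2 CPM in the other classes of 30 or more cells, whereas rete testis-like cells had *Sox8* at 35.5 CPM. *Nr5a1* was higher in Leydig-like (225 CPM) than in Sertoli-like cells (73.0 CPM). *Amh*, *Sox9* and *Sox8* were among the markers that named the Sertoli-like class, so their place there was not a result.

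The genes whose levels over the 16 clusters were most like those of each member were sought among genes with 200 or more UMIs, by Pearson r of log2(CPM + 1). For *Ptgds* these were *Gstm6* (r = 0.99), *Cstdc1* (0.98) and *Etd* (0.98). For *Hpgds* they were *Ntpcr* (0.97), *C1qb* (0.94) and *Fcrls* (0.94), for *Ptges* *2200002D01Rik* (0.88), *Aard* (0.86) and *Dtx1* (0.86), and for *Ptgr1* *Gspt2* (0.92), *Fbrsl1* (0.91) and *Uba6* (0.89). *Ptges2* was most like *Napa* (0.91), *Aldoc* (0.88) and *Grhpr* (0.88), and *Ptges3* most like *Pbdc1* (0.93), *Ppih* (0.93) and *Cenpq* (0.92). With Spearman rho in place of Pearson r, none of the 3 genes stayed for *Hpgds*, *Ptges2* or *Ptgr1*. *Aard* and *C1qb* were among the markers that named the Sertoli-like and immune-like classes. The clusters share 1 library and differ in depth, so these values are a description. *Ptgs1* and *Ptgs2* had under 200 UMIs and were not compared.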

How the data were processed

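Droplet-based 3' single-cell RNA sequencing was performed on 1 pool of control testes. The deposited file holds raw UMI counts per gene and barcode, made by the authors with Cell Ranger on mm10 joined to a YFP sequence. The file header gives version 3.1.0, the submitters' processing notes give 3.0.2 and 3.1.0, and the study's methods give a later release.

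From these counts, barcodes under 200 genes were left out (372), then doublets by artificial nearest neighbours at an expected rate of 4.04% (204, taking the place of the caller used in the study), and then outliers beyond 3 median absolute deviations of UMIs, genes, mitochondrial or ribosomal-protein share (1024). The 3821 cells left were normalized with SCTransform (Seurat 5.3.0, sctransform 0.4.2, R 4.3.3), regressing cell-cycle scores and mitochondrial share, and clustered on 3000 variable genes without the prostaglandin pathway genes, with 30 components at a resolution of 0.8. A class name needed a mean log2 marker ratio of 1 or more (5 CPM added) and 3 markers in 25% of the cells. Clusters led by markers of another class, or of low depth with none of their own markers among the top 10 genes, stayed unnamed.

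UMIs were summed per class (Python 3.11.15, numpy 2.4.6, scipy 1.17.1), and ratios had exact conditional binomial intervals. The ratios, the 2-fold call, the intervals and the thinning were tested on simulated counts without variation between cells. The filters, the clustering and the naming of classes were not tested in this way. With 1 library no test between groups was made, and edgeR 4.0.16 served for scaling factors alone. Named genes were the 8 members, pathway genes at 20 CPM or more in a class of 30 or more cells, all receptors with a UMI, and the 3 genes most like each member of 200 UMIs or more. *Tbxas1*, *Slco2a1* and *Abcc4* fell outside this rule and were named after their values were seen. The members and the lists were chosen with earlier results of these data known. Gene positions came from GENCODE on GRCm38 and sequences from RefSeq (GRCm38.p6), in which all 8 members were matched. Mutant cells were not analysed here.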

Additional observations from a re-analysis of the deposited data

Results flagged for a closer look

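Each gene of the route except *Ptgs2* was also found, above the level that 3 counts would give, in barcodes that were left out of the comparisons. In the 372 barcodes under 200 genes, 46.8% of UMIs were haemoglobin and 49.2% mitochondrial, so levels there are not comparable with those of other cells. *Ptgds* stood at 7.09 CPM (3.40 to 13.04) in that set. It was at 424 CPM (408 to 440) in the 204 removed as doublets and at 211 CPM (202 to 220) in the 1024 removed as outliers. The kept cells had 505 CPM of *Ptgds*. Its ratio to *Amh* in the 3 sets left out was 1.11 (0.406 to 3.09), 1.04 (0.984 to 1.10) and 1.22 (1.15 to 1.30). *Ptges3* was at 6.38, 236 and 228 CPM in the same sets. *Hpgds* was at 4.88 CPM in the doublets and 1.77 CPM in the outliers, beside 4.14 CPM in the kept cells, and *Ptgs1* was at 7.32 CPM (5.34 to 9.79) and 3.44 CPM, beside 3.63 CPM (3.14 to 4.17). *Ptges* was at 6.34 CPM in the doublets and 2.46 CPM in the outliers, *Ptges2* at 15.1 and 23.9 CPM, and *Ptgr1* at 46.7 and 43.3 CPM.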

How the results depend on the processing

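Under 13 other settings for each of 7 members, the log2 ratio of Sertoli-like to all other cells stayed within the counting interval's spread in 80 of 91 cases and moved in 11. The sign turned only for *Ptges2*, whose ratio was positive in 12 of 13 settings and whose interval held 0 as reported. *Ptgds* (6.95) was 6.54 with outliers beyond 5 median absolute deviations, 6.45 with no outlier filter, 5.94 with no doublets removed, 7.20 at double the doublet rate and 4.76 with each cell classed by itself. At double the doublet rate *Hpgds* was -0.34, only 7 classes could be named, and 4 members of 7 kept their highest class, since the immune-like, endothelial-like and rete testis-like cells no longer formed named classes (*Hpgds* was then highest in interstitial-like cells, at 4.39 CPM). At a resolution of 0.4 and after log normalization, the immune-like cells joined an erythroid-like cluster, where *Hpgds* was 82.6 and 77.5 CPM. *Ptgr1* was 1.31 with each cell classed by itself. With the mean of single-cell CPM, *Ptges* was 2.11, *Ptges2* 0.34, *Ptges3* -0.28 and *Ptgr1* 1.61. Apart from what the settings themselves removed, the cause was not tested. The share of Sertoli-like cells with *Ptgds* was 96.2% at 3000 UMIs per cell and 96.3% for 2 or more UMIs. With Spearman rho, 4 of the 18 most similar genes were shared. No ratio was formed for *Ptgs2*, with no UMI in Sertoli-like cells. No paired analysis was possible because there was 1 library, and none could be left out. Depth limited *Ptgs1*, *Ptgs2*, *Hpgds* and most receptors.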
